A study of Mus musculus with 12 samples.

Results

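The genes that make cholesterol, sense sterols and move sterols were followed across 12 mouse livers measured on one-colour Agilent arrays. The set holds 31 genes, found as the non-control probes whose gene name equals that of a set gene or its older synonym. They had 58 probes among 41174 probes, and they make up 31 of the 27816 features that the arrays measure (20657 named genes, the remainder being probes with no gene name). By role, 18 are enzymes of cholesterol synthesis, 4 belong to the sterol-sensing machinery, and 9 take up, move, store or export sterols. Each gene was read from its brightest probe. These 31 probes were above background on 12 of 12 arrays by the scanner software's own call, so all 31 genes were tested and none entered through 1 group alone.

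The livers came from male C57BL/6 mice of 8 to 10 weeks of age, and every mouse in the 4 groups, controls included, had been adrenalectomized, which removes the source of endogenous glucocorticoids. The groups were untreated wild-type, dexamethasone-treated wild-type, untreated HESKOL and dexamethasone-treated HESKOL, with 3 livers each. HESKOL is the labels' name for a knockout liver and is not spelled out there, the series title names Hes1, a transcriptional repressor, and the labels give no promoter or Cre line behind the knockout. Treated mice received 1 mg/kg of dexamethasone, a synthetic glucocorticoid, into the peritoneum, and livers were taken 6 hours later. No vehicle injection is described for untreated mice.

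Cholesterol is assembled from acetyl-CoA through mevalonate, isoprenoid diphosphates, squalene and lanosterol. The transcription factor encoded by Srebf2 drives most of these enzymes. Its precursor is carried out of the endoplasmic reticulum by the escort protein Scap when sterols are low, and is held back there by Insig1 or Insig2 when sterols are high. Insig1 is itself a target of this factor, so its messenger usually follows that of the synthesis enzymes, whereas Insig2 is controlled separately in liver. Cells also regulate cholesterol by uptake, by export through ABC transporters and by esterification.

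Levels below are processed signals on the log2 scale, each relative to its own array's 75th percentile, so they compare livers for 1 gene and not genes with each other. The 75th percentile itself lay between 897 and 1614 intensity units, and 61.5% to 71.9% of probes per array were well above background. Arrays lay on 3 slides of 4. All untreated wild-type livers shared slide 1 with 1 untreated HESKOL liver (replicate 1). The remaining untreated HESKOL livers (replicates 2 and 3) were on slide 2 beside treated wild-type livers 1 and 2. Treated HESKOL livers shared slide 3 with treated wild-type liver 3, so that treated and untreated livers of 1 genotype were never on the same slide. Hes1 signal in HESKOL liver was 46.1% of the wild-type signal without and 46.7% with dexamethasone, with no overlap. The exact two-sided permutation p was 0.1 each, the smallest that 3 against 3 arrays allow. With dexamethasone the log2 difference was -1.10. It was -0.57 (1.49-fold, limma adjusted p = 0.431) without treated wild-type liver 1, and -0.40 within slide 3. The altered part of the gene is not stated, so its 1 probe is a limited check.

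Wild-type dexamethasone replicate 1 stood apart from the other treated livers in ways that touch these genes. Its Fkbp5, a glucocorticoid-induced co-chaperone, read -1.0, against 3.45 and 3.98 in the other 2 treated wild-type livers and -0.65 to 1.19 in untreated ones. Its Tsc22d3, likewise glucocorticoid-induced, read 2.40 against 5.51 and 4.32. Its Cdkn1a (2.01) and Igfbp1 (8.94), also induced by glucocorticoids, were above all 3 untreated wild-type livers. Results that rest on this array are given with and without it.

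After dexamethasone, HESKOL livers had less of several early and late cholesterol synthesis enzymes and of Insig1, and more Insig2. Of the 31 genes, 8 fell and 1 rose (limma, adjusted p under 0.05), that is, 7 of 18 synthesis enzymes, Insig1 and, upward, Insig2. Across all 18724 tested features 4.22% fell and 3.64% rose. The median change of the 31 genes was -1.18 on the log2 scale, and that of all features -0.0025. In 14 of the 18 enzymes the treated HESKOL livers lay below all 6 untreated livers of both genotypes, as did 12.9% of all features. In 17 of the 31 genes the treated livers lay below every untreated HESKOL liver, which held for 18.7% of all features, and in 3 (Insig2, Npc1 and Lcat) above, which held for 15.5%.

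**Figure D1:**
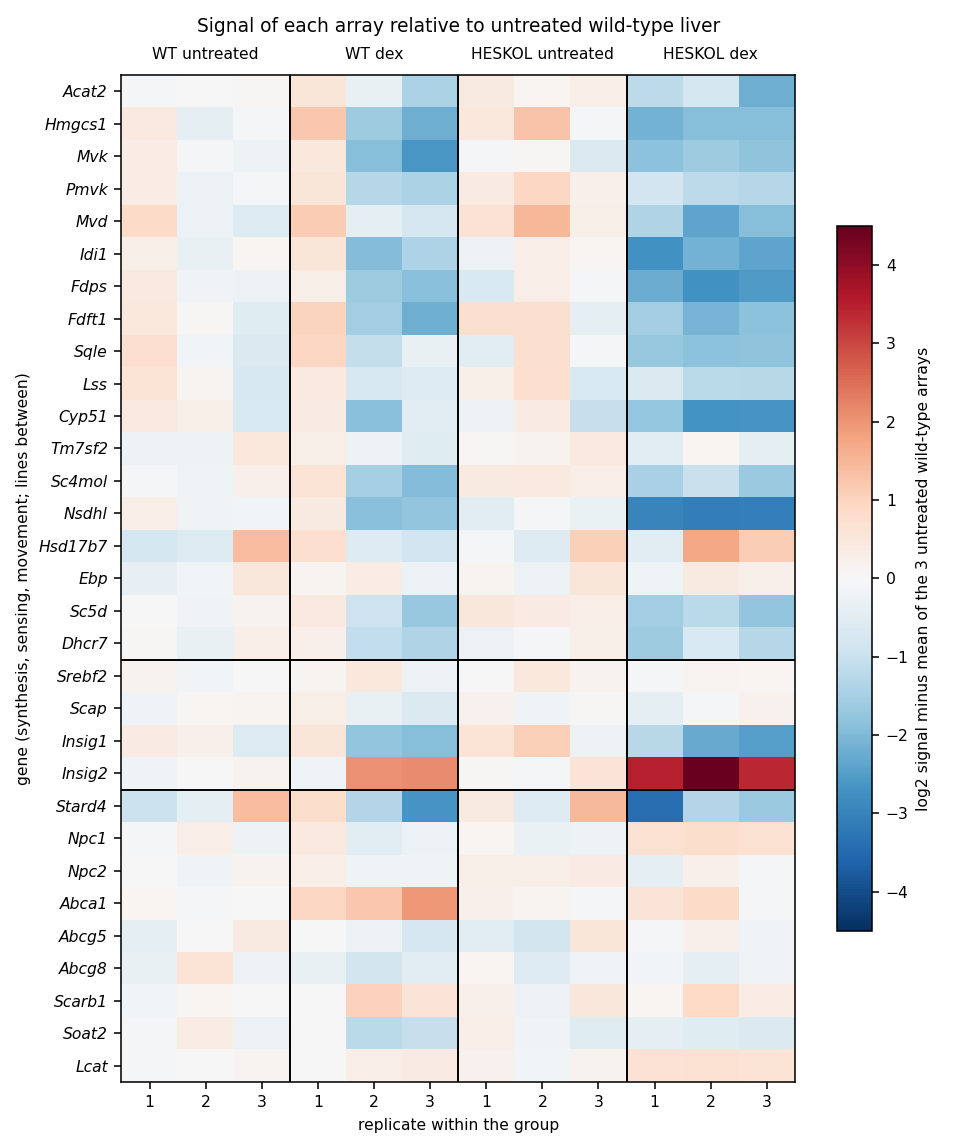
Signal of each of the 31 genes (rows, grouped as synthesis enzymes, sensing and movement) on each of the 12 arrays (columns), as log2 difference from the mean of the 3 untreated wild-type arrays; blue is lower and red is higher. The synthesis block is blue in the 3 treated HESKOL livers (medians -1.56, -1.40 and -1.82) and in wild-type dexamethasone replicates 2 and 3 (-1.19 and -1.40), but not in replicate 1 (0.51).

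Among the early enzymes, Mvd, which decarboxylates mevalonate diphosphate to the isoprenoid unit, read 0.75, 1.60 and 0.39 in untreated HESKOL livers and -1.24, -2.26 and -1.82 after dexamethasone. Every treated liver was below every untreated one, 6.43-fold on average (log2 change -2.68, SE 0.55, adjusted p = 0.0172). Idi1, the isomerase that readies this unit for chain building, read 3.73, 4.29 and 4.10 without and 1.27, 1.88 and 1.62 with treatment. The groups did not overlap, and the fall was 5.47-fold (-2.45, SE 0.51, adjusted p = 0.0189). The Idi1 probe is placed by the array design on chromosome 2 while the gene lies on chromosome 13, as for the Hmgcs1 probe, which is placed on an unassigned contig, so signal from a near-identical copy cannot be told apart from that of either gene.

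Fdps makes farnesyl diphosphate, the last precursor shared with other isoprenoids. Its levels were 4.60, 5.58 and 5.22 without and 3.03, 2.56 and 2.74 with dexamethasone. All treated livers were lower, by 5.13-fold on average (-2.36, SE 0.49, adjusted p = 0.0185). Sqle, squalene epoxidase, an oxygen-dependent control point of the pathway, read 2.10, 3.33 and 2.49 without and 0.89, 0.73 and 0.78 with treatment. The 3 treated livers were tightly grouped and lower by 3.58-fold (-1.84, SE 0.51, adjusted p = 0.0489), which is close to the threshold.

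The later enzymes turn lanosterol into cholesterol. Cyp51, which removes a methyl group from lanosterol, read 1.45, 2.05 and 0.65 without and -0.09, -1.03 and -0.97 with dexamethasone. Its groups did not overlap, and it fell 4.23-fold (-2.08, SE 0.56, adjusted p = 0.0467). Nsdhl, a sterol dehydrogenase in the removal of further methyl groups, read 1.00, 1.40 and 1.18 in untreated and -1.47, -1.61 and -1.58 in treated livers. The means were 1.19 ± 0.20 and -1.55 ± 0.07 (SD, n = 3 each), a fall of 6.72-fold (-2.75, SE 0.49, adjusted p = 0.0103). This was the largest fall among the synthesis enzymes as read from their brightest probes. The other 2 Nsdhl probes that were above background on 12 of 12 arrays gave -2.81 and -2.84. Sc5d, a desaturase close to the end of the pathway, read 6.48, 6.37 and 6.29 without and 4.41, 4.77 and 4.20 with treatment, 3.79-fold lower without overlap (-1.92, SE 0.42, adjusted p = 0.0220). Its other probe, dimmer but also above background on 12 of 12 arrays, gave a larger fall of -3.39.

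The other 11 synthesis enzymes did not pass. For Acat2, Hmgcs1, Mvk, Pmvk, Fdft1, Sc4mol and Dhcr7 the treated HESKOL livers were nonetheless all below the untreated ones. Hmgcs1, the synthase that makes the precursor of mevalonate, read 5.29, 6.11 and 4.75 without and 2.69, 2.89 and 2.92 with dexamethasone (-2.55, SE 0.71, adjusted p = 0.0512). Fdft1, squalene synthase, had a change of -2.18 (SE 0.68, adjusted p = 0.0740), Acat2, the thiolase at the entry, -1.65 (adjusted p = 0.0514), and Pmvk, phosphomevalonate kinase, -1.61 (adjusted p = 0.0520). Of the remaining enzymes, Lss had -1.14 (95% confidence interval -2.13 to -0.15, adjusted p = 0.146) and Tm7sf2 -0.49 (-1.13 to 0.14). Ebp, a sterol isomerase, had 0.01 (-0.66 to 0.68), and Hsd17b7, a sterol ketone reductase, 0.66 (-0.95 to 2.26), the 2 enzymes of the 18 with a change above 0. The synthesis median was -1.80.

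In the sensing group the Insig genes moved in opposite directions. Insig1 read 2.76, 3.21 and 1.85 in untreated and 0.89, -0.14 and -0.34 in treated HESKOL livers. All treated values were lower, by 5.54-fold on average (-2.47, SE 0.63, adjusted p = 0.0375). Insig2 read 3.41, 3.28 and 3.95 without and 6.86, 7.82 and 6.74 with dexamethasone. The means were 3.55 ± 0.36 and 7.14 ± 0.59 (SD, n = 3 each), a rise of 12.1-fold (3.60, SE 0.54, adjusted p = 0.00472). That was the largest change among the 31 genes in either direction, and the other Insig2 probe that was above background gave 3.80. The signal of Srebf2 itself changed by -0.15 (95% confidence interval -0.65 to 0.34, adjusted p = 0.720) and that of Scap by -0.14 (-0.72 to 0.44, adjusted p = 0.784), so neither changed beyond the spread between livers.

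No gene of the 9 for sterol movement passed in HESKOL liver, and their median change was 0.25. Npc1, which lets cholesterol leave lysosomes, read 1.83, 1.43 and 1.49 without and 2.42, 2.50 and 2.42 with dexamethasone. All treated livers were higher, and the change missed the threshold (0.87, SE 0.26, adjusted p = 0.0670). Lcat, the plasma enzyme that esterifies cholesterol in lipoproteins, was also without overlap (0.57, SE 0.19, adjusted p = 0.0839). Stard4, a sterol carrier protein of the cytosol, had the lowest value of the group at -2.56, but with an SE of 0.92 (adjusted p = 0.113), and its untreated HESKOL livers ranged from 1.08 to 3.11. The exporter gene Abca1 had 0.38 (95% confidence interval -0.27 to 1.04), its biliary counterparts Abcg5 and Abcg8 0.25 (-0.53 to 1.04) and 0.0022 (-0.63 to 0.64), and the lipoprotein receptor gene Scarb1 0.28 (-0.40 to 0.97). Soat2, which stores cholesterol as ester, had -0.41 (-1.14 to 0.32) and the lysosomal carrier Npc2 -0.41 (-0.91 to 0.09).

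**Figure D2:**
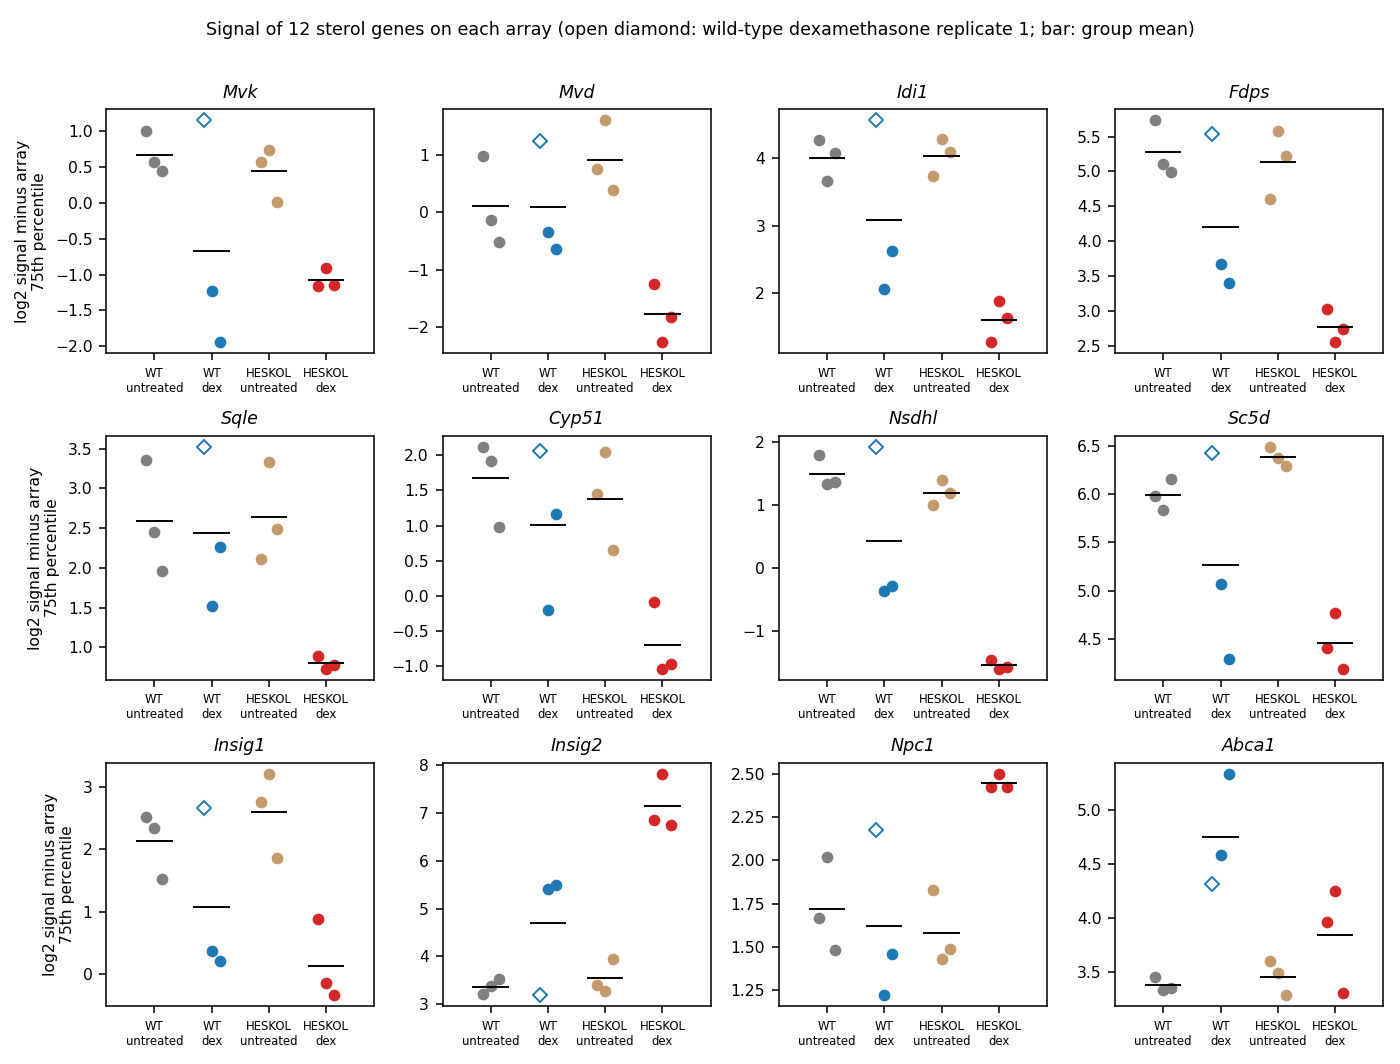
Level of 12 genes on each array (log2 signal minus the 75th percentile of that array; 1 point per liver, bar at the group mean, open diamond for wild-type dexamethasone replicate 1): the 9 genes that passed in HESKOL liver, and Mvk, Npc1 and Abca1. Treated HESKOL livers lie below all untreated HESKOL livers for the 8 genes that fell and above them for Insig2, while the open diamond lies above all untreated wild-type livers for Mvk, Mvd, Idi1, Sqle, Nsdhl, Sc5d, Insig1, Npc1 and Abca1, within their range for Fdps and Cyp51, and just below it for Insig2.

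With the slide as a block, which routes this dexamethasone effect through wild-type replicates 1 and 2 on slide 2, 0 of 31 genes and 0.0% of features passed in limma (2 of 31, and 6.41% of features, had an unadjusted p under 0.05). Directions of the 9 genes stayed as they were, while Mvk, Tm7sf2, Srebf2, Scap, Abca1 and Soat2 changed sign. Insig2 had 2.33 (adjusted p = 0.770) and Nsdhl -1.78 (adjusted p = 0.809), and the median of the 31 was -0.18. The median was -0.75 with 0 genes passing when replicate 1 was also left out. Slides 2 and 3 are then linked only by replicates 2 and 3, 1 wild-type liver on each. Unblocked, the count of 9 became 18 (14.9% of all features) when treated wild-type liver 1 was left out, 3 or 2 (1.93% or 1.96%) when untreated HESKOL liver 1 or 2 was, and 5, 2 or 2 (4.18%, 2.05% or 3.03%) when treated HESKOL liver 1, 2 or 3 was. Insig2 and Nsdhl passed with each of the 12 arrays left out (adjusted p at most 0.0278 and 0.0491). Some markers of other cells also moved with treatment in the same livers. The 8 Kupffer cell and macrophage markers averaged 2.83 to 3.70 in untreated and 1.86 to 2.94 in treated HESKOL livers, with 1 of 8 lower, and the 3 tested of 7 adipocyte markers averaged -0.57 to 0.84 and 2.18 to 4.45, with 2 higher and Lep not above background on any array. The 8 T and B lymphocyte markers averaged -3.27 to -2.69 and -4.90 to -3.97, with 1 of 8 lower. The 9 hepatocyte markers measured averaged 6.73 to 7.45 and 7.22 to 7.54, with 2 higher and 1 lower. The untreated and treated ranges overlapped for the macrophage and hepatocyte markers. They also overlapped for endothelial (1 of 8 higher, 2 lower), stellate (1 of 7 higher), cholangiocyte (0 of 6) and neutrophil (0 of 5) markers. The 2 tested of 6 pancreatic acinar markers averaged -3.31 to -2.93 and -4.0 to -3.31, neither passed, and Pnlip and Amy2a5 were not above background on any array. The part of other cell types in these changes was not tested, and in whole liver fewer cells of a type and less RNA per cell cannot be told apart.

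Since many of these genes moved together, the 250 bases before their starts are shown for 4 of them, as RefSeq gives them on assembly GRCm38.p6 of the mouse genome. Hmgcs1 is the only gene with a window in which the searched string of the sterol regulatory element was found. Nsdhl and Insig1 fell, and Insig2 rose. Capitals mark the motifs found, and each sequence runs 5′ to 3′ on the strand of its gene. The windows are chr13:119690101-119690350 (plus strand) for Hmgcs1, chrX:72918271-72918520 (plus) for Nsdhl, chr5:28071162-28071411 (plus) for Insig1 and chr1:121332590-121332839 (minus) for the Insig2 start farthest upstream.
Hmgcs1: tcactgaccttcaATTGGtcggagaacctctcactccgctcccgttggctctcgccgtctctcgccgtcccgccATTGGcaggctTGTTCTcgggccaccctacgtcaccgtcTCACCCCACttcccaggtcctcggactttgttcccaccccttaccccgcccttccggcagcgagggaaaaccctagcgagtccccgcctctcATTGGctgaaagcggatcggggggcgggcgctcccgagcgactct
Nsdhl: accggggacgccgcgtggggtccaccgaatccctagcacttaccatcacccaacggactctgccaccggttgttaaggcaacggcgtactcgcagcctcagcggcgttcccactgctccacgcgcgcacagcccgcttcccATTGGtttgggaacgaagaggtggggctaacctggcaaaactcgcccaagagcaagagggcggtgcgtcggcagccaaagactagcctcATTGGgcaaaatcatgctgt
Insig1: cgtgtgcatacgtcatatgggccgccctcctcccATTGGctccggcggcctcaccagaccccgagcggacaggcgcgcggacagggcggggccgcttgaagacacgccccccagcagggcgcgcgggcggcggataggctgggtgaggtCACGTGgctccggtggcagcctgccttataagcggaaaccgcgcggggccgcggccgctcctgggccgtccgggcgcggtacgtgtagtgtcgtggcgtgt
Insig2: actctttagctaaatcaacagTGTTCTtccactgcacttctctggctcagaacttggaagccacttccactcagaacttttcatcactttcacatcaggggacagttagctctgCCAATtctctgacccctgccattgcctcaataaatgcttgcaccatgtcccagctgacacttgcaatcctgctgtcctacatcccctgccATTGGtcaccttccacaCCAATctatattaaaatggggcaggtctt

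The motifs were searched on both strands in 250-base windows before RefSeq starts, which the table holds for 24 of the 31 genes (31 windows) and for 32851 windows in all. No 2 motifs overlapped in the sequences shown. The NF-Y motif ATTGG, whose factor works beside SREBP proteins at sterol genes, was in at least 1 window of 20 of the 24 genes (20 of 31 windows) and in 33.8% of all windows. All 7 genes that passed in HESKOL liver and have a window held it, Insig2 included, although the other 2 Insig2 windows did not. The sterol regulatory element, searched only as TCACNCCAC, was in Hmgcs1 alone of the 24 (1 of 31 windows), and in 1.05% of all windows. Other forms of the element, or sites outside the windows, were not searched. The E-box CACGTG was in 6 of the 24 genes (6 of 31 windows), Insig1 and Sc5d among them, and in 6.02% of all windows. The half-site AGAACA of glucocorticoid response elements was in 8 of the 24 (9 of 31 windows), with Insig2 the 1 gene that passed among them, and in 16.1% of all windows. These are matches of letters in a short window and no evidence of binding.

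In wild-type liver dexamethasone gave the same genes smaller changes on average and a wide spread, and none passed. The median change of the 31 was -0.41, and 0 of 31 passed in limma against 0.198% of all features, with 5 of 31 and 11.8% of all features at an unadjusted p under 0.05 (among the 31, Mvk, Nsdhl and Soat2 lower, Insig2 and Abca1 higher). The spread came largely from replicate 1. Across the 18 synthesis enzymes the median difference from untreated wild-type liver was 0.51 in that array and -1.19 and -1.40 in replicates 2 and 3. In 17 of the 18 it had the highest level of the 3 treated livers, which held for 41.6% of all features.

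Mvk, mevalonate kinase, read 1.01, 0.57 and 0.45 in untreated wild-type livers and 1.15, -1.23 and -1.94 after dexamethasone. Replicate 1 was above and the other 2 were below all untreated livers, so the groups overlapped (log2 change -1.35, SE 0.61, adjusted p = 0.421). Insig2 had 3.21, 3.37 and 3.52 without and 3.19, 5.41 and 5.49 with treatment. The last 2 livers were well above the untreated range and replicate 1 just below it (1.33, SE 0.54, adjusted p = 0.370). Insig1 mirrored this, with 2.51, 2.35 and 1.52 untreated and 2.66, 0.37 and 0.22 treated (-1.05, SE 0.63, adjusted p = 0.554).

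The enzymes that fell in HESKOL liver showed the same split among treated wild-type livers. Idi1 read 4.28, 3.66 and 4.08 untreated and 4.56, 2.05 and 2.62 treated (-0.93, SE 0.51, adjusted p = 0.527). Fdps read 5.73, 5.10 and 4.99 untreated and 5.54, 3.68 and 3.40 treated (-1.07, SE 0.49, adjusted p = 0.431). Nsdhl read 1.80, 1.34 and 1.36 untreated and 1.92, -0.37 and -0.29 treated (-1.08, SE 0.49, adjusted p = 0.424). In each of these treated replicates 2 and 3 were below all untreated ones and replicate 1 was not. Sc5d behaved alike, with 5.98, 5.83 and 6.16 untreated and 6.42, 5.07 and 4.29 treated (-0.73, SE 0.42, adjusted p = 0.541).

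For Mvd, Sqle and Cyp51 replicates 2 and 3 were not both below the untreated livers. Mvd read 0.98, -0.14 and -0.52 untreated and 1.25, -0.35 and -0.64 treated (-0.02, 95% confidence interval -1.22 to 1.18). Sqle read 3.36, 2.46 and 1.95 untreated and 3.52, 1.52 and 2.26 treated (-0.16, -1.27 to 0.95), and Cyp51 2.11, 1.92 and 0.98 untreated and 2.06, -0.21 and 1.16 treated (-0.67, -1.90 to 0.57). In these genes at least 1 of replicates 2 and 3 stayed within the untreated range.

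Abca1, which exports cholesterol to form high-density lipoprotein, was the only gene of the 31 whose treated and untreated wild-type livers did not overlap. It read 3.46, 3.33 and 3.36 without and 4.32, 4.58 and 5.33 with dexamethasone. All 3 treated livers were higher, replicate 1 among them, and the 2.57-fold difference did not pass (1.36, SE 0.30, adjusted p = 0.120). Groups without overlap upward made up 6.13% of all features. Npc1 read 1.67, 2.02 and 1.48 untreated and 2.18, 1.22 and 1.46 treated, with overlap (-0.10, 95% confidence interval -0.68 to 0.47).

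Without wild-type dexamethasone replicate 1, 11 of the 31 fell and 2 rose, against 3.39% and 2.51% of all features. With slide as a block and this array left out 0 of 31 passed in limma (smallest adjusted p = 0.379, 10 of 31 and 5.36% of all features at an unadjusted p under 0.05), with a median of -0.70 and 0 of 31 turned in direction. Among treated wild-type livers, only replicate 2 enters the wild-type estimates of that blocked fit. Replicate 3 shares slide 3 with treated HESKOL livers alone, so the block leaves it no untreated liver for comparison. The unturned directions and the 10 of 31 therefore describe 1 treated liver and are no check across treated livers. Unblocked, the median change was -0.72, and that of the synthesis enzymes -1.27. Those that fell were Hmgcs1, Mvk, Pmvk, Idi1, Fdps, Fdft1, Sc4mol, Nsdhl, Sc5d and Dhcr7 of the 18 enzymes, and Soat2. The sizes ran from 2.17-fold for Soat2 to 4.79-fold for Mvk (-2.26, SE 0.30, adjusted p = 0.00460), with Nsdhl at 3.56-fold (-1.83, SE 0.21, adjusted p = 0.00263). Insig2 rose 4.24-fold (2.08, SE 0.33, adjusted p = 0.00923) and Abca1 2.98-fold (1.58, SE 0.30, adjusted p = 0.0190), while Insig1 missed the threshold (-1.84, SE 0.47, adjusted p = 0.0511). In 11 of the 18 enzymes replicates 2 and 3 lay below all untreated wild-type livers, as did 20.0% of all features.

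**Figure D3:**
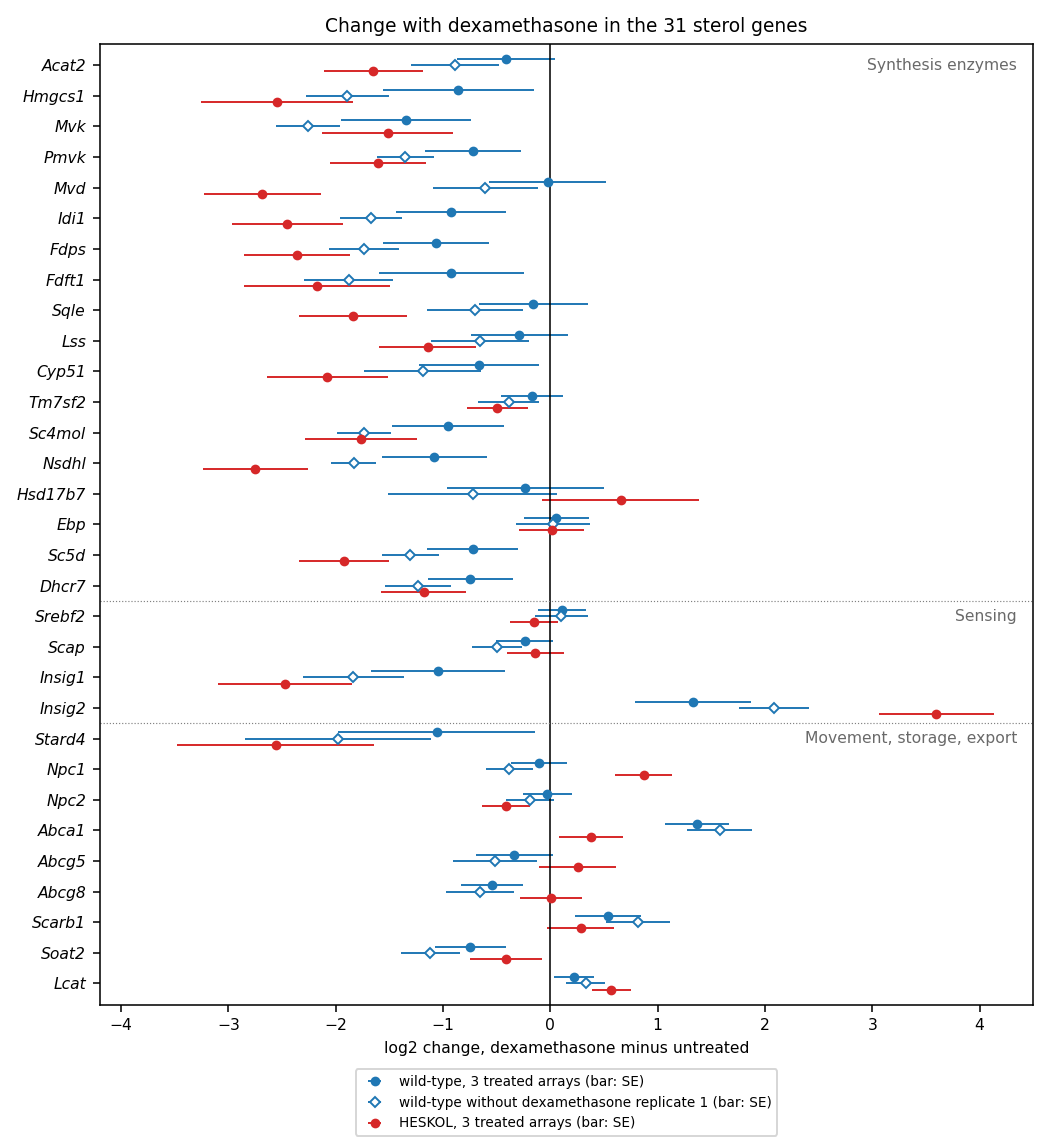
Log2 change with dexamethasone (points, bars of 1 SE) for the 31 genes in wild-type liver (filled blue), in wild-type liver without treated replicate 1 (open blue diamonds) and in HESKOL liver (red). Most synthesis enzymes lie left of 0 in both genotypes, Insig2 lies right of 0 in both (1.33 and 3.60), and leaving out replicate 1 moves the wild-type medians from -0.41 to -0.72.

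Other cells' markers were also higher in replicate 1 than in the other treated wild-type livers. The macrophage markers averaged 3.32 there, 2.11 and 2.18 in replicates 2 and 3, and 2.63 to 3.21 in untreated wild-type livers. Lymphocyte markers averaged -2.96, -4.57 and -5.23 in replicates 1, 2 and 3, cholangiocyte markers 0.49, -0.82 and -1.47, and adipocyte markers 1.99, 0.49 and 1.05. Hepatocyte markers averaged 7.36, 7.57 and 7.25. The part of these cells, or of this array, in the low count was not tested. With the slide as a block, which rests on treated replicates 1 and 2, 0 of 31 and 0.0% of all features passed in limma (1 of 31 at an unadjusted p under 0.05, beside 3.25% of features), the median was -0.11, and 9 of the 31 changed sign. Acat2, Mvd (0.09), Fdft1, Lss, Scap, Npc1 (0.35), Npc2 and Soat2 turned to higher and Srebf2 to lower, which left 13 of 31 above 0 against 6 without the block.

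Between untreated HESKOL and wild-type livers no difference in these genes passed the test. In limma 0 of 31 passed, and 0 were at an unadjusted p under 0.05, beside 0.0% and 1.59% of all features. The median difference, HESKOL minus wild-type, was 0.13, against 0.04 for all features. Single differences ran from -0.31 for Nsdhl (95% confidence interval -1.38 to 0.77) to 0.80 for Mvd (-0.40 to 2.0). For Insig2 the difference was 0.18 (-1.0 to 1.36), for Insig1 0.48 (-0.90 to 1.85), for Srebf2 0.21 (-0.29 to 0.70) and for Abca1 0.08 (-0.58 to 0.73). Acat2, Sc4mol, Sc5d and Npc2 were higher in HESKOL without overlap, as were 4.16% of all features, and within slide 1 the median difference was 0.18. These intervals allow differences of more than 2-fold for most genes.

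After dexamethasone, none of the 31 genes passed between HESKOL and wild-type livers. The synthesis median was below 0 over all arrays, but within slide 3 it was near that of all features. Of the 18 enzymes 16 had lower mean values in HESKOL (median -0.85, all features 0.04). Within slide 3, which holds 1 treated wild-type liver and all 3 treated HESKOL livers, 11 of 18 had higher values (median 0.17, all features 0.14). In limma 0 of 31 were called beside 1.14% of all features, with 10 of 31 (7 lower and 3 higher in HESKOL) and 15.7% of all features at an unadjusted p under 0.05. Treated HESKOL livers lay below all treated wild-type livers for Mvd, Idi1, Fdps, Sqle, Nsdhl and Abca1 and above them for Insig2, Npc1 and Lcat, as did 7.69% and 10.6% of all features. Insig2 averaged 7.14 ± 0.59 in HESKOL and 4.70 ± 1.31 in wild-type liver (SD, n = 3 each). The difference was 5.45-fold (2.45, SE 0.54, adjusted p = 0.0589). Nsdhl averaged -1.55 ± 0.07 and 0.42 ± 1.30, 3.93-fold lower in HESKOL (-1.97, SE 0.49, adjusted p = 0.0814).

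The other differences were less certain. Npc1 had 0.83 (95% confidence interval 0.25 to 1.41, adjusted p = 0.157), Mvd -1.86 (-3.06 to -0.66, adjusted p = 0.133), Sqle -1.63 (-2.74 to -0.52, adjusted p = 0.151) and Abca1 -0.90 (-1.56 to -0.25, adjusted p = 0.175). Fdps had -1.43 (-2.51 to -0.35, adjusted p = 0.190), but its other probe, dimmer yet above background on 12 of 12 arrays, gave 1.14. Between untreated genotypes that probe gave 1.33 and the brightest -0.14, so the 2 probes disagree on genotype. With dexamethasone the dimmer probe fell in both genotypes, by -2.10 in wild-type and -2.29 in HESKOL liver. Enzymes with intervals on both sides of 0 included Mvk at -0.40 (-1.73 to 0.93) and Sc5d at -0.80 (-1.73 to 0.12). The other Sc5d probe gave -1.84.

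Without wild-type dexamethasone replicate 1, which carried much of the spread, 3 of the 31 passed against 2.44% of all features. Insig2 (1.69, SE 0.33, adjusted p = 0.0321) and Npc1 (1.11, SE 0.22, adjusted p = 0.0331) were higher in HESKOL, and Nsdhl (-1.22, SE 0.21, adjusted p = 0.0208) was lower. Abca1, 2.17-fold lower in HESKOL, did not pass (-1.12, SE 0.30, adjusted p = 0.0934). The synthesis median then went from -0.85 to -0.16, and Mvk from -0.40 to 0.51. Insig2 passed also without wild-type dexamethasone replicate 3 (2.84, adjusted p = 0.0441). Within slide 3 Insig2 differed by 1.65 (adjusted p = 0.491), Npc1 by 0.99 (0.423), Nsdhl by -1.26 (0.582) and Abca1 by -1.49 (0.205). In that comparison 12 of the 31 turned, all to higher in HESKOL, 9 of them enzymes (Acat2, Hmgcs1, Mvk, Pmvk, Fdft1, Tm7sf2, Sc4mol, Sc5d and Dhcr7), with Mvk at 0.86 and Sc5d at 0.17. All features there had a median of 0.14, also to the higher side. The median of the 31 went from -0.43 to 0.25, and 0 of 31 passed in limma (2 of 31, and 10.5% of all features, at an unadjusted p under 0.05).

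**Figure D4:**
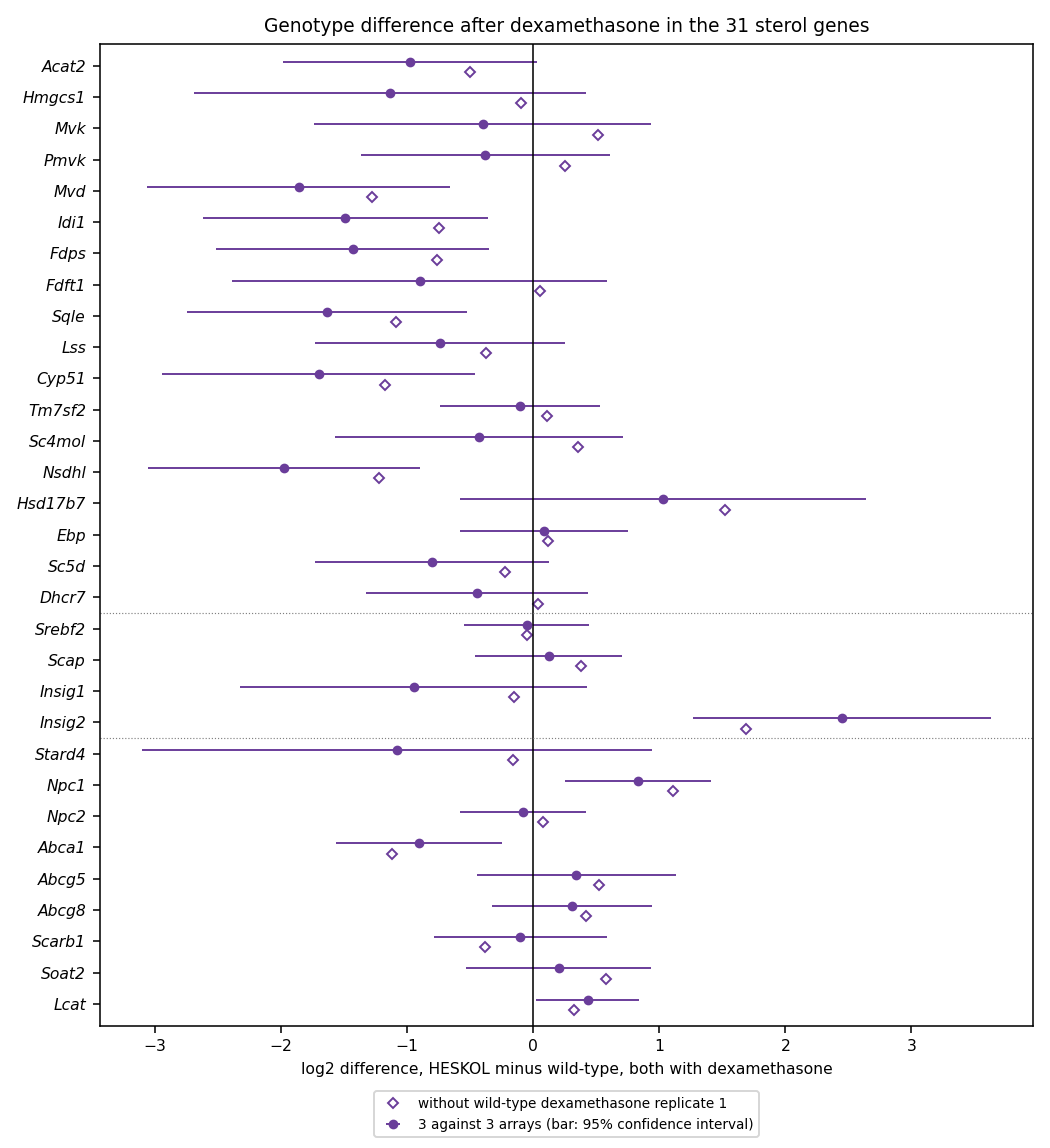
Log2 difference between treated HESKOL and treated wild-type livers for the 31 genes (filled points with 95% confidence intervals from the limma fit of 3 against 3 arrays) and the same difference without wild-type dexamethasone replicate 1 (open diamonds). Insig2 (2.45 and 1.69) and Npc1 (0.83 and 1.11) lie right of 0 and Nsdhl (-1.97 and -1.22) and Abca1 (-0.90 and -1.12) left of it both ways, whereas many enzymes move towards 0 or across it.

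The test of whether the genotypes responded differently, the difference of the dexamethasone effects, called 0 of 31 in limma beside 0.016% of all features, with 6 of 31 and 6.64% of all features at an unadjusted p under 0.05. Mvd had -2.66 (95% confidence interval -4.36 to -0.96), Sqle -1.68 (-3.25 to -0.11) and Nsdhl -1.67 (-3.19 to -0.14), the HESKOL change being the lower. Insig2 had 2.27 (0.60 to 3.94), Npc1 0.97 (0.16 to 1.79) and Abca1 -0.98 (-1.91 to -0.05). The smallest adjusted p was 0.514, for Mvd, and without wild-type dexamethasone replicate 1 it was 0.231, for Npc1 (1.25, SE 0.29). With slide as a block 16 of 31 lay above 0 against 8 without it, and the median went from -0.81 to 0.05. For most enzymes the intervals were wide, such as -1.69 (-3.89 to 0.51) for Hmgcs1 and -1.25 (-3.35 to 0.85) for Fdft1, so a difference in response was neither shown nor bounded closely.

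Of 30 further genes of sterol biology, 29 were tested, and Npc1l1, the intestinal cholesterol importer, was not above background on any array. In HESKOL liver 1 of the 29 fell and none rose, no larger a share than the 4.22% and 3.64% of all features. It was Srebf1, which encodes the related factor that drives fatty acid synthesis, with 6.48, 6.27 and 6.86 in untreated and 2.63, 2.59 and 2.22 in treated livers. The groups did not overlap (-4.06, SE 0.69, adjusted p = 0.00855). With slide as a block the change was -1.05 (adjusted p = 0.860), or -1.76 (adjusted p = 0.480) when wild-type dexamethasone replicate 1 was also left out. In the treated wild-type livers it read 6.99, 5.57 and 3.25. Genes that came close in HESKOL liver were Stard5, a sterol carrier (0.79, adjusted p = 0.0526), the sterol-regulated membrane protein gene Tmem97 (-1.02, adjusted p = 0.0577) and Mylip, a ubiquitin ligase for lipoprotein receptors (1.15, adjusted p = 0.0598).

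In wild-type liver 0 of the 29 were called in limma, with 4 at an unadjusted p under 0.05, a share near the 11.8% of all features. Without replicate 1, Tmem97 fell (-1.36, adjusted p = 0.00410) and Osbp, an oxysterol-binding protein gene, rose (0.93, adjusted p = 0.0272), and neither passed with the slide as a block as well (-1.14 and 0.78, adjusted p = 0.760 and 0.981). Between treated genotypes 1 of 29 was called, Stard5, beside 1.14% of all features. It read 2.44, 2.48 and 2.21 in wild-type and 3.43, 3.68 and 3.52 in HESKOL livers. All 3 HESKOL livers were higher (1.17, SE 0.22, adjusted p = 0.0369), and within slide 3 the difference was 1.33 but no longer passed (adjusted p = 0.197).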

How the data were processed

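RNA of 12 livers (4 groups of 3, 500 ng each, Cy3) was read on 12 one-colour arrays of 45018 spots, 1639 of them controls, designed on mouse assembly mm7 per the file headers. The deposited values are intensity: per the file headers, Agilent Feature Extraction 9.5.3.1 (9.5 in the submitters' processing notes) wrote background-subtracted processed signals. The series table deposited by the authors holds the same processed signal intensity. Here log2 processed signal minus each array's 75th percentile was used, without control and outlier-flagged spots. Spots of a probe were averaged, and the brightest probe stood for a gene. Features (18724 of 27816) that the scanner software called above background in all 3 livers of some group entered limma 3.58.1 (R 4.3.3; Python 3.11.15), with group means, 5 contrasts and Benjamini-Hochberg adjustment over all features (threshold 0.05). The 3 arrays a group limit the precision. Per-array values went to genes called in a contrast and to the gene with the smallest p of each role in each dexamethasone contrast, and Hes1 was the check of genotype. Insig1 in wild-type liver, Hmgcs1 (values and promoter), Hsd17b7 and Stard4 were chosen after values were seen. The genes and lists were chosen with earlier results of these data known. Labels call the arrays replicates without naming separate cages or litters, so p-values measure the spread between these samples. Alternatives covered scaling, background, the deposited table, filter, probes, slide and replicate blocks, moderation, samples in the fit and each array left out. The fit was run on simulated data with independent noise, no slide effect and no outlying array. That run therefore does not bear on how the slides or wild-type dexamethasone replicate 1 affect the results. Other cell types' lists, also read, were endothelial, stellate, cholangiocyte, lymphocyte, neutrophil and pancreatic acinar.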

Additional observations from a re-analysis of the deposited data

How the results depend on the processing

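The count of genes passing with dexamethasone in HESKOL liver (9) was 0 with slide as a fixed block, 0 with wild-type dexamethasone replicate 1 also left out (chosen after seeing the data), 16 with slide as a random block (12.8% of all features), 17 with the groups fitted alone (11.6%), and 2 to 18 with 1 array left out (1.93% to 14.9%), against 7.87% as reported. It was 6 to 13 under the other 8 alternatives (3.42% to 9.87% of all features). In the random-block fit the estimated correlation within a slide was -0.06, below 0, so that fit takes no slide difference out. The count in wild-type liver (0) was 0 to 13 with 1 array left out (0.0585% to 5.91%), 13 without treated replicate 1 (5.91%), and 0 otherwise. Between treated genotypes (0, beside 1.14%) it was 1 on the deposited table (2.09%), 1 with probes averaged (1.18%) and 1 with slide as a random block (1.56%). With 1 array left out it was 0 to 3 (0.175% to 2.44%).

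The labels give replicate numbers without saying that they pair the samples. Deviations of same-numbered arrays correlated between -0.40 and 0.62, over 0.1 in 6 of 18 pairs, which does not settle whether samples were paired. With the replicate number as a block 12 genes passed in HESKOL liver (8.0% of all features) and 0 in the other contrasts (0.0% to 0.668%).

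Directions turned for genes that had not passed. With slide as a fixed block 12 of 31 turned between treated genotypes, 9 in wild-type and 6 in HESKOL liver. Among the genes followed through the alternatives the values were 0.44 (Mvk, HESKOL), 0.86 and 0.17 (Mvk and Sc5d, treated genotypes), 0.094 and 0.35 (Mvd and Npc1, wild-type) and -0.43 (Abca1, HESKOL). With replicate 1 also left out the value of Abca1 was -0.29. Those of Mvk and Sc5d (0.86 and 0.17) could not change, since that comparison rests on slide 3, which does not hold replicate 1. Mvd in wild-type was 0.013 with slide as a random block, and Npc1 0.0029 with probes averaged. With 1 array left out the ranges were -1.03 to 0.51 (Mvk, treated genotypes) and, in wild-type, -0.60 to 0.41 (Mvd), -0.70 to 0.30 (Sqle) and -0.38 to 0.097 (Npc1). In HESKOL liver Sqle lost its call under 5 further alternatives, among them quantile normalization, Cyp51 under 3 and Insig1 under 2; the cause was not tested. Signal over background limited no gene of the set.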

Other observations

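Hsd17b7 and Stard4 varied between untreated livers more than the other genes of the set did. Hsd17b7 read 0.61, 0.78 and 2.80 in untreated wild-type and 1.32, 0.83 and 2.46 in untreated HESKOL livers. Stard4 read 0.70, 1.23 and 3.05 in untreated wild-type and 2.05, 1.08 and 3.11 in untreated HESKOL livers. In both genes and both groups replicate 3 was the highest, and these 2 arrays lay on different slides. The same held for Ebp, Tm7sf2, Abcg5 and Insig2. Deviations of these 2 arrays from their group means correlated at 0.62 over 18707 genes, so the pattern is not particular to Hsd17b7 and Stard4. After dexamethasone Hsd17b7 read 2.14, 0.82 and 0.53 in wild-type and 0.91, 3.15 and 2.52 in HESKOL livers, whereas Stard4 read 2.44, 0.35 and -1.0 in wild-type and -1.78, 0.35 and -0.01 in HESKOL livers. Neither gene passed in any comparison.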
